A study of Homo sapiens with 12 samples.

Results

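The proteasome subunit genes described here are 31 genes for the subunits of the 20S core particle and the 19S regulatory particle, chosen by name and matched by Ensembl identifier to 31 of the 58051 gene rows of the deposited count tables. They are the 7 alpha-ring genes PSMA1 to PSMA7, the 7 constitutive beta-ring genes PSMB1 to PSMB7, the 6 ATPase genes PSMC1 to PSMC6 and 11 non-ATPase genes of the regulatory particle (PSMD1, PSMD2, PSMD3, PSMD4, PSMD6, PSMD7, PSMD8, PSMD11, PSMD12, PSMD13 and PSMD14). The 12 RNA-seq libraries, 2 in each of 6 groups, came from HCT116, a line of human colon carcinoma cells. Cells received siControl, siPFDN2 or siPFDN5. The targets PFDN2 and PFDN5 belong to prefoldin, a chaperone complex that hands unfolded actin and tubulin to the TRiC chaperonin. After 24 h with the siRNA all cells were starved of serum for 48 h, and RNA was taken either at the end of starvation ("before serum") or 90 min after serum was given back ("after serum"). All groups are therefore transfected, starved cells of 1 line. The labels do not say whether replicates came from separate cultures, so p-values measure only the spread between these libraries.

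The proteasome is the cell's main protease for proteins tagged with ubiquitin. Its core is a barrel of alpha rings, which gate the entrance, around beta rings, of which PSMB5, PSMB6 and PSMB7 carry the active sites. The regulatory particle binds ubiquitin chains, removes them and threads the substrate into the core with a ring of ATPases. When proteasome activity falls short, the transcription factor NFE2L1, with a small MAF partner, is known to raise most subunit genes together through antioxidant response elements in their promoters. Serum given to starved cells induces immediate-early genes within this time.

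Of the libraries, 3 need to be named before the results. Transcripts of PFDN5 stood at 76.8 and 68.9 CPM (a count relative to its library's scaled total) in siControl before serum. In siPFDN5 before serum they were at 41.0 and 44.2. Those labelled siPFDN5 after serum had 67.5 and 68.6, against 67.9 and 74.0 in siControl after serum, so a knockdown was not measured there, and each value from them is given under that label. PFDN2 ran from 7.55 to 9.47 CPM over the 4 siPFDN2 libraries and from 11.2 to 28.7 over the other 8, with 21.1 or more in those labelled siPFDN5. Before serum, siControl libraries had 11.5 and 11.2 CPM of PFDN2, against 7.55 and 8.49 with siPFDN2. After serum the pairs were 19.5 and 16.3 against 8.73 and 9.47. In edgeR's test (adjusted p under 0.05), neither PFDN2 nor PFDN5 was called in any comparison of an siRNA with siControl at either time. The third library is replicate 2 of siPFDN2 before serum, described with the members it affects. Of the epithelial and colon markers, EPCAM, CDH1, KRT8 and KRT18 ran from 64.7 to 1139 CPM over the libraries and the intestinal factor CDX2 was at 5.57 CPM or higher in each, while CDX1 stayed at 0.0212 or lower. The leukocyte gene PTPRC and the T-cell gene CD3E stayed at 0.143 CPM or lower. Of the fibroblast markers COL1A1 ran from 3.97 to 15.7 CPM, with 5.14 and 4.03 before serum and 13.4 and 10.9 after it in siControl, and COL1A2 and COL3A1 stayed at 0.295 or lower. The endothelial markers VWF and PECAM1 ran from 0.796 to 1.74 and from 0.140 to 0.453 CPM. Gene-body counts per library ran from 59784425 to 136504590, and each subunit gene had between 2400 and 33619 of them in each library, so all 31 passed the filter on low counts and counting error was small.

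Because the subunit genes moved together in 1 of the comparisons below, the promoters of 4 of them are shown. RefSeq's table of transcription starts (GRCh38.p14) held a window for 26 of the 31 genes, and the stretches below end before the first base of the annotated gene. Capitals mark matches, on either strand, to the letters of the antioxidant response element core TGACNNNGC, the CCAAT box, or the ETS-type site CCGGAAG. These are PSMB3 (chr17:38752591-38752735, plus strand), which holds the first 2 kinds of match, PSMB4 (chr1:151399423-151399533, plus strand), which holds none, PSMC3 (chr11:47426474-47426589, minus strand) and PSMD8 (chr19:38374421-38374535, plus strand), which hold a CCAAT match on opposite strands.
PSMB3: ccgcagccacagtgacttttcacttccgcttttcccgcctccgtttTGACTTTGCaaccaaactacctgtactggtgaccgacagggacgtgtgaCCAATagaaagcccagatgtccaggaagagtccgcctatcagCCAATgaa
PSMB4: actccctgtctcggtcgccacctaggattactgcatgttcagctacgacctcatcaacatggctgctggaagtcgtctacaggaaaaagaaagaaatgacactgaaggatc
PSMC3: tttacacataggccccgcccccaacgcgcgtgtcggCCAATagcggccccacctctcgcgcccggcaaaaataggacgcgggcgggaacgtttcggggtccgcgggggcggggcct
PSMD8: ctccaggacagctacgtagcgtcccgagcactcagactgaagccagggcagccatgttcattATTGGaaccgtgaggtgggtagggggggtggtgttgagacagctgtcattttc
In the 250 bases before the RefSeq start, the antioxidant response element core matched in 5 of the 26 genes (19.2%; PSMA4, PSMB3, PSMC5, PSMD3 and PSMD12) against 13.2% of the 27305 genes in the table. The CCAAT letters matched in 14 of 26 (53.8%) against 37% of all genes, and CCGGAAG in 6 of 26 (23.1%) against 10.2%. In the stretches shown no match overlaps another. A match describes the letters in this window and nothing about binding.

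Levels per length were compared in exon counts, as exon CPM per kilobase of the gene's merged exons (1179 to 9123 bases). In siControl before serum the highest was PSMB3 at 92.4 ± 1.94 (SD, n = 2), followed by PSMA7 at 87.7 ± 2.08, PSMB1 at 81.0 ± 3.40, PSMB4 at 71.5 ± 0.855 and PSMB5 at 65.7 ± 0.779. PSMB5, which carries the chymotrypsin-like site, thus stood above PSMB7 with the trypsin-like site (52.0 ± 2.25) and PSMB6 with the caspase-like site (35.0 ± 2.73). The lowest were PSMD6 at 6.84 ± 0.208, PSMC6 at 7.67 ± 0.401 and PSMD11 at 9.26 ± 0.835. The merged exon length, by which these levels are divided, is longest for PSMD6 and shortest for PSMB3, and it counts exons of every annotated isoform. Neighbours in the middle, such as PSMB2 (22.4 ± 1.80), PSMA3 (22.3 ± 2.70), PSMA4 (21.7 ± 1.83), PSMD12 (21.5 ± 1.55) and PSMD3 (21.2 ± 1.85), lay within 1 SD of each other.

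**Figure D1:**
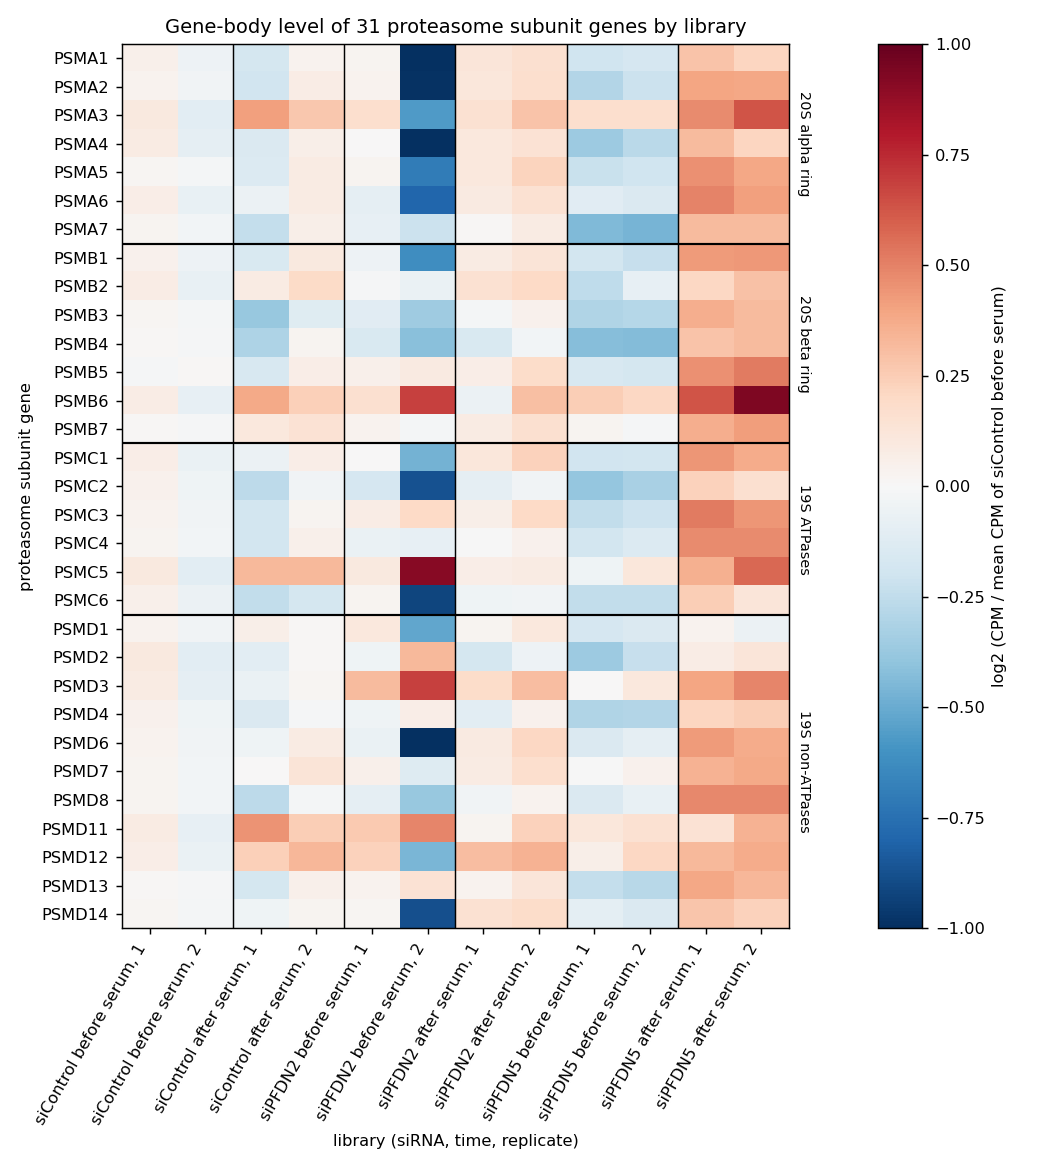
Gene-body level of each of the 31 genes (rows, by ring or particle) in each of the 12 libraries (columns), as log2 of CPM over the mean CPM of siControl before serum, with the colour scale ending at 1 in either direction. The last 2 columns, labelled siPFDN5 after serum, are red in most rows, the 2 columns of siPFDN5 before serum are mostly pale blue, and replicate 2 of siPFDN2 before serum holds the deepest blue and red cells side by side.

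The gene-body counts showed the subunit genes at their highest in the libraries labelled siPFDN5 after serum. Summed over the 31 genes, the 2 libraries of siPFDN5 before serum had 2586 and 2653 CPM and those labelled siPFDN5 after serum 3702 and 3717 CPM. The other 8 libraries ran from 2523 to 3227 CPM, so the 2 highest sums did not overlap with any other group. In 24 of the 31 genes both libraries labelled siPFDN5 after serum lay above all 10 others, which held for 11.9% of the 27915 genes tested. The 7 exceptions were PSMB6, PSMC5, PSMD1, PSMD2, PSMD3, PSMD11 and PSMD12. In bulk RNA, a change in the makeup of a culture and a change in RNA per cell cannot be told apart.

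Within the siPFDN5 label, 11 of the 31 genes rose after serum and none fell at an adjusted p under 0.05 (edgeR's quasi-likelihood test, Benjamini-Hochberg over all genes). In the same comparison 12.2% of all genes tested were called in either direction and 5.72% were called higher. All 31 log2 fold changes were above 0, from 0.11 to 0.77, with a median of 0.55 (1.47-fold) beside a median of -0.03 over all genes. In 30 of the 31 genes both libraries after serum lay above both before it, against 36.8% of all genes.

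In the alpha ring, 1 of 7 genes passed the test, with a median log2 fold change of 0.58 over the 7. PSMA7 (chromosome 20, 62136735 to 62143440, minus strand), the alpha-ring gene that passed, had 93.3 and 91.7 CPM before serum, then 158 and 158 after it. Its libraries did not overlap, and it rose by 0.77 ± 0.14 (SE) on the log2 scale (edgeR adjusted p = 0.0101). The other alpha-ring genes lay between 0.39 (PSMA3) and 0.64 (PSMA2) without passing; their SEs, 0.20 to 0.27, were larger than that of PSMA7.

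In the beta ring, 4 of 7 genes rose, with a median of 0.63. PSMB4 (chromosome 1, 151399534 to 151401944, plus strand), a structural beta subunit, had 93.7 and 93.0 CPM before serum, then 153 and 156 after it, a log2 fold change of 0.73 ± 0.15 (edgeR adjusted p = 0.0173). PSMB5, the chymotrypsin-like subunit and the site that bortezomib blocks, went from 87.1 and 86.0 to 134 and 140 CPM (0.66 ± 0.13). PSMB1 and PSMB3, also structural, rose by 0.64 and 0.63. The other active-site subunits did not pass: PSMB6 had a log2 fold change of 0.56 ± 0.20 and PSMB7 of 0.39 ± 0.12.

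In the regulatory particle, 3 of 6 ATPase genes and 3 of 11 non-ATPase genes rose, with medians of 0.57 and 0.39. PSMC3 (chromosome 11, 47418769 to 47426473, minus strand), an ATPase of the ring, had 81.0 and 83.2 CPM before serum, then 138 and 130 after it, a log2 fold change of 0.71 ± 0.14 (edgeR adjusted p = 0.0128). PSMC4 and PSMC1, also ATPases, rose by 0.63 and 0.59. PSMD13 and PSMD8, both lid subunits, rose by 0.61 and 0.59, and PSMD4, a ubiquitin receptor, by 0.53. PSMD14, the lid's deubiquitinase, had 0.37 ± 0.23 and did not pass. The smallest values were those of PSMD11 (0.11 ± 0.15), PSMD1 (0.15 ± 0.18), the large scaffold of the base, and PSMD12 (0.21 ± 0.19).

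The count of 11 needed both libraries of each group, although the share of all genes called without 1 of them is not given here. Leaving out either library of siPFDN5 before serum, or either library labelled siPFDN5 after serum, gave 0 called genes each time, with all 11 still above 0. Leaving out either library of siControl before serum or of siPFDN2 after serum gave 7, beside 2.8% to 3.17% of all genes called higher. In the opposite direction, leaving out replicate 2 of siPFDN2 before serum, which is not in the comparison but shares in its estimate of spread, gave 28 genes called higher (20.1% of all genes), leaving out replicate 1 instead also gave 28 (19.8%), and removing a trend with GC content gave 27 (16.4% of all genes). With exon counts 6 were called higher, beside 2.72% of all genes. PFDN5 itself (0.68 ± 0.14 on the log2 scale, edgeR adjusted p = 0.0156), the epithelial keratins KRT8 (0.74) and KRT18 (0.75), which were 2 of 5 epithelial and colon markers tested, and the share of counts outside exons moved with the same libraries. The 6 epithelial and colon markers summed to between 1339 and 1354 CPM before serum and between 2129 and 2136 CPM after it. In the other 8 libraries they summed to 1384 to 1871 CPM. KRT8 (1138 and 1139 CPM after serum) and KRT18 (692 and 698) made up most of the higher sums. EPCAM went from 175 and 183 to 233 and 216 CPM. CDH1 went from 65.5 and 68.8 to 68.1 and 70.9 CPM. CDX2 was lower after serum, at 8.47 and 7.67 and then 5.57 and 6.33 CPM. The part of PFDN5, these markers and the share of counts outside exons in the result was not tested.

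**Figure D2:**
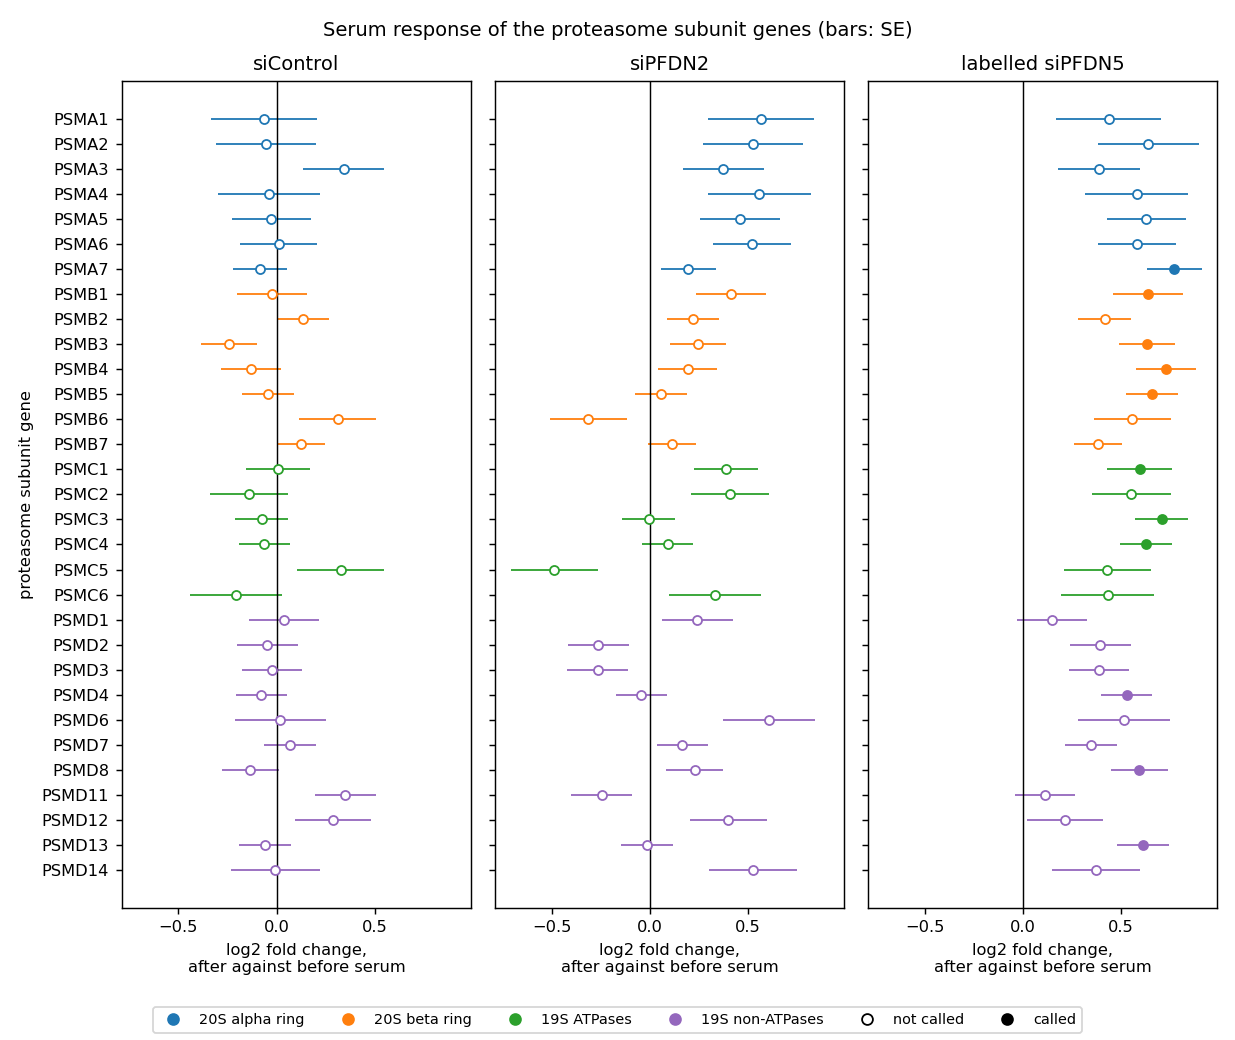
Log2 fold change of each gene after against before serum (x axis) in each siRNA (panels), with SE bars, colour for the ring or particle, and filled points for genes called by edgeR's quasi-likelihood test. In the panel for the siPFDN5 label all 31 points lie right of 0 and 11 are filled; in the panels for siControl and siPFDN2 points lie on both sides of 0 and none is filled.

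In siControl the subunit genes showed no common shift after serum: 12 of 31 log2 fold changes were above 0, their median was -0.03, and 0 were called by edgeR (2.87% of all genes were called in either direction). DESeq2 called 0 too, and its share of all genes is not given here. PSMD11, a lid subunit, had the largest value, with 65.4 and 58.4 CPM before serum and 84.5 and 73.4 after it. Its log2 fold change was 0.35 ± 0.15 (edgeR adjusted p = 0.375). At the other end, PSMB3 had 91.4 and 88.8 CPM before and 69.1 and 83.0 after serum (-0.24 ± 0.14). Its 2 libraries after serum were further apart than the higher of them was from the libraries before serum. With replicate 1 or with replicate 2 of siPFDN2 before serum left out, the fit called 4 subunit genes higher in siControl (6.08% and 6.2% of all genes), and with both left out it called 1 (6.13%).

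In siPFDN2, 23 of 31 log2 fold changes were above 0, the median was 0.23, and 0 genes were called (3.26% of all genes were called in either direction). DESeq2 called 0 too, and its share of all genes is not given here. The alpha ring had the largest median, 0.52, with all 7 above 0. PSMD6, a lid subunit, had the largest value: 49.1 and 25.7 CPM before serum and 54.8 and 59.2 after it, a log2 fold change of 0.61 ± 0.23. PSMC5, an ATPase, had the most negative: 44.4 and 78.0 CPM before and 43.4 and 44.0 after serum (-0.49 ± 0.22). In both genes it was replicate 2 before serum that stood apart, low in PSMD6 and high in PSMC5, while replicate 1 was close to the libraries after serum. Without that library the median over the 31 genes was 0.09. With replicate 1 left out instead, siPFDN2 before serum is the 1 library that stood apart, and the spread comes from the other groups.

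That library differed from its replicate gene by gene. Across the 31 genes, log2 of replicate 2 over replicate 1 of siPFDN2 before serum had an SD of 0.516, against 0.060 to 0.133 in the other 5 groups. PSMA1 was at 129.6 and 59.5 CPM, PSMA2 at 94.9 and 46.6, and PSMA4 at 124.4 and 59.4 in replicates 1 and 2, so that these 3 alpha-ring genes were at less than 0.50 of replicate 1, whereas PSMC5 was at 1.75 times it. The 13 genes whose longest transcript had under 45% GC had a median difference of -0.73, and the 18 with 45% or more had 0.01. As a description across genes, which share both libraries, Spearman's rho between that difference and GC content was 0.71 over the 31 genes and 0.67 over 27632 genes. The comparisons with siPFDN2 before serum were repeated without that library and, apart from that, with the GC trend removed. The part of the GC trend in them was not otherwise tested.

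**Figure D3:**
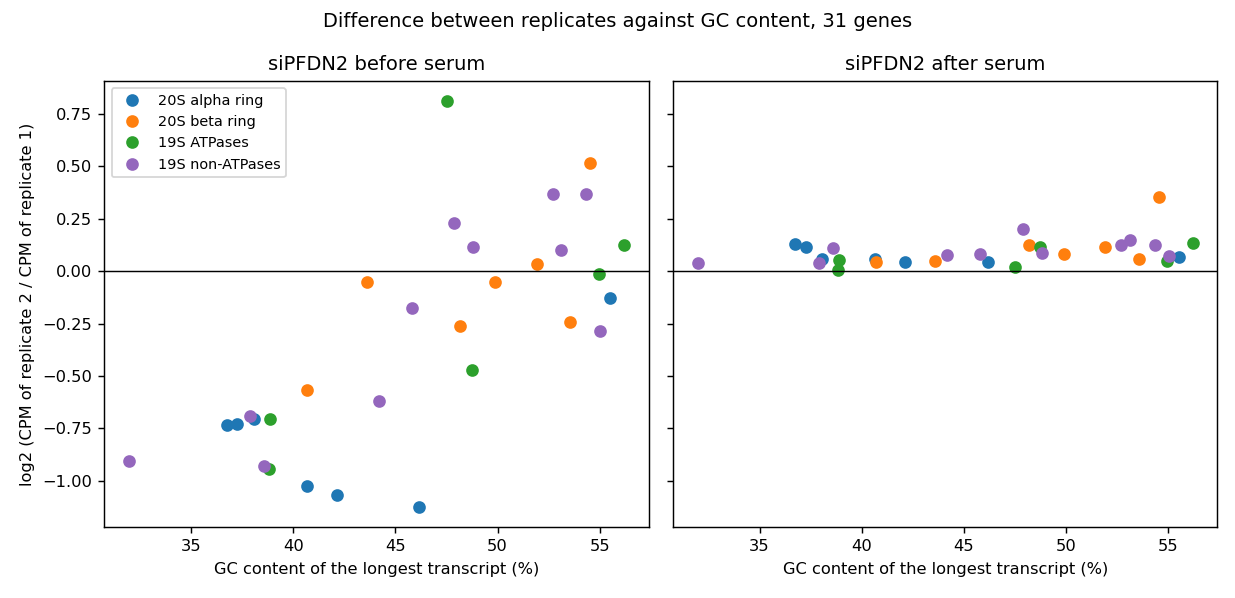
Log2 ratio of replicate 2 to replicate 1 (y axis) against the GC content of each gene's longest transcript in percent (x axis) for the 31 genes, in siPFDN2 before serum (left) and after serum (right). On the left the points run from -1.12 (PSMA1) to 0.81 (PSMC5) and low-GC genes lie low. On the right all points lie above 0, most of them close to it, with PSMB6 the highest (39.8 and 50.8 CPM in replicates 1 and 2).

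Averaged over the 3 siRNA labels, all 31 log2 fold changes after serum were above 0, with a median of 0.23 beside -0.03 over all genes. Of the 31, 4 were called higher and 0 lower; over all genes 14.9% were called in either direction and 7.6% higher. PSMB1 rose by 0.34 ± 0.10 on the log2 scale (edgeR adjusted p = 0.0464), PSMC1 by 0.33 ± 0.09 and PSMA7 by 0.29 ± 0.08, and PSMB2, the remaining one, was also called. For PSMB1, siControl had 158 and 148 CPM before serum and 138 and 164 after it, siPFDN2 had 148 and 99.8 and then 163 and 168, and the siPFDN5 label had 135 and 131 and then 206 and 208. Only the siPFDN5 label gave PSMB1 a call within a label. The average lost all 4 calls when any 1 of 9 libraries was left out (all but replicate 1 of siControl after serum and the 2 of siPFDN2 before serum), and called 26 higher without replicate 2 of siPFDN2 before serum (14.9% of all genes) and 25 without replicate 1 (24.7%).

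Whether the serum response differed between siRNAs was tested directly. The difference between the siPFDN5 label and siControl had a median of 0.59 over the 31 genes, 29 of them above 0. By edgeR 0 were called (0% of all genes), and DESeq2 called 9, all higher (1.42% of all genes). The smallest adjusted p was 0.096, that of PSMB3, whose response was 0.88 ± 0.20 higher on the log2 scale than in siControl. PSMD11 lay at the other end with -0.24 ± 0.22. With the GC trend removed 16 genes were called higher (4.03% of all genes), without replicate 2 of siPFDN2 before serum 22 were (12.2% of all genes), and without replicate 2 of siControl after serum 9 were (2.51% of all genes). The difference between siPFDN2 and siControl gave 0 called genes with edgeR (0% of all genes). It gave 0 with DESeq2 too, whose share of all genes is not given here. PSMA1 had the largest value (0.63 ± 0.38) and PSMC5 the most negative (-0.81 ± 0.31). With 1 library left out at a time, PSMA1 ran from 0.18 to 1.32 and PSMC5 from -1.15 to -0.35.

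The siRNAs were also compared at each time. Before serum, siPFDN5 against siControl had a median of -0.17 and 8 of 31 log2 fold changes above 0. By edgeR 0 genes were called (0.00716% of all genes), and 0 by DESeq2, whose share of all genes is not given here. In 23 of the 31 genes both siPFDN5 libraries lay below both siControl libraries, against 30.5% of all genes. With replicate 1 or with replicate 2 of siPFDN2 before serum left out, 4 were called lower (3.77% and 3.89% of all genes). PSMA7 had the most negative value, with 129 and 124 CPM in siControl and 93.3 and 91.7 in siPFDN5 (-0.45 ± 0.14, edgeR adjusted p = 0.254), and PSMB6 the largest, with 43.6 and 39.0 against 49.1 and 47.7 CPM (0.23 ± 0.20). After serum, the libraries labelled siPFDN5 against siControl had a median of 0.39 and 29 values above 0. Of the 31 genes, 0 were called by edgeR (0.00358% of all genes) and 6 were called higher by DESeq2 (3.28% of all genes). In 28 genes both libraries labelled siPFDN5 lay above both of siControl, against 30.6% of all genes.

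After serum PSMD8, a lid subunit, had the largest value: 79.8 and 94.2 CPM in siControl and 133 and 133 in the libraries labelled siPFDN5 (0.61 ± 0.15, edgeR adjusted p = 0.0751). PSMD11 had the most negative, with 84.5 and 73.4 against 68.3 and 78.6 CPM (-0.10 ± 0.15), and its libraries overlapped. The number called higher after serum was 19 with the GC trend removed (7.9% of all genes), 24 without replicate 2 of siPFDN2 before serum (13.8% of all genes) and 8 without replicate 2 of siControl after serum (2.43% of all genes). These comparisons use the same siPFDN5 and siControl libraries as the serum responses above.

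For siPFDN2, 0 of the 31 genes were called by edgeR before serum (0% of all genes) or after it (0% of all genes). By DESeq2 0 were called at either time, and its share of all genes is not given here. Before serum the median was -0.16 and all 7 alpha-ring genes lay below 0; PSMC2, an ATPase, had 83.9 and 79.0 CPM in siControl and 72.6 and 44.6 in siPFDN2 (-0.48 ± 0.20), and PSMC5 had 44.5 and 38.7 against 44.4 and 78.0 CPM (0.56 ± 0.22). Without replicate 2 the median was 0.03; without replicate 1 instead, which leaves only the library that stood apart, 22 genes were called, 5 higher (20.2% of all genes) and 17 lower (21.5% of all genes). After serum the median was 0.13, with PSMD3, a lid subunit, the largest at 83.5 and 88.7 CPM in siControl and 99.3 and 108 in siPFDN2 (0.27 ± 0.15) and PSMC5 the most negative at 52.1 and 52.1 against 43.4 and 44.0 CPM (-0.25 ± 0.22).

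Counts outside exons, which in total RNA come largely from introns of unspliced transcripts, were the gene-body counts less the exon counts. They made up 2.55% and 2.51% of the subunit genes' counts in the libraries labelled siPFDN5 after serum, and 3.61% to 6.35% in the other 10. In 27 of the 31 genes both of those libraries had a smaller intronic share than every other library. Of the 20411 genes tested that had intronic counts in every library, among them 30 of the 31 and all of the 27, 39% did so. PSMB2 had 1.67% and 1.76% there and 7.55% and 5.87% in siPFDN5 before serum, and PSMB7 had 10.4% and 11.4% against 25.8% and 24.6%. Over all genes the share was 24.3% ± 2.20 (SD, n = 2) in siPFDN5 before serum and 16.0% ± 1.70 in the libraries labelled siPFDN5 after serum, which lay within the spread of siControl before serum (16.2% ± 1.66).

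**Figure D4:**
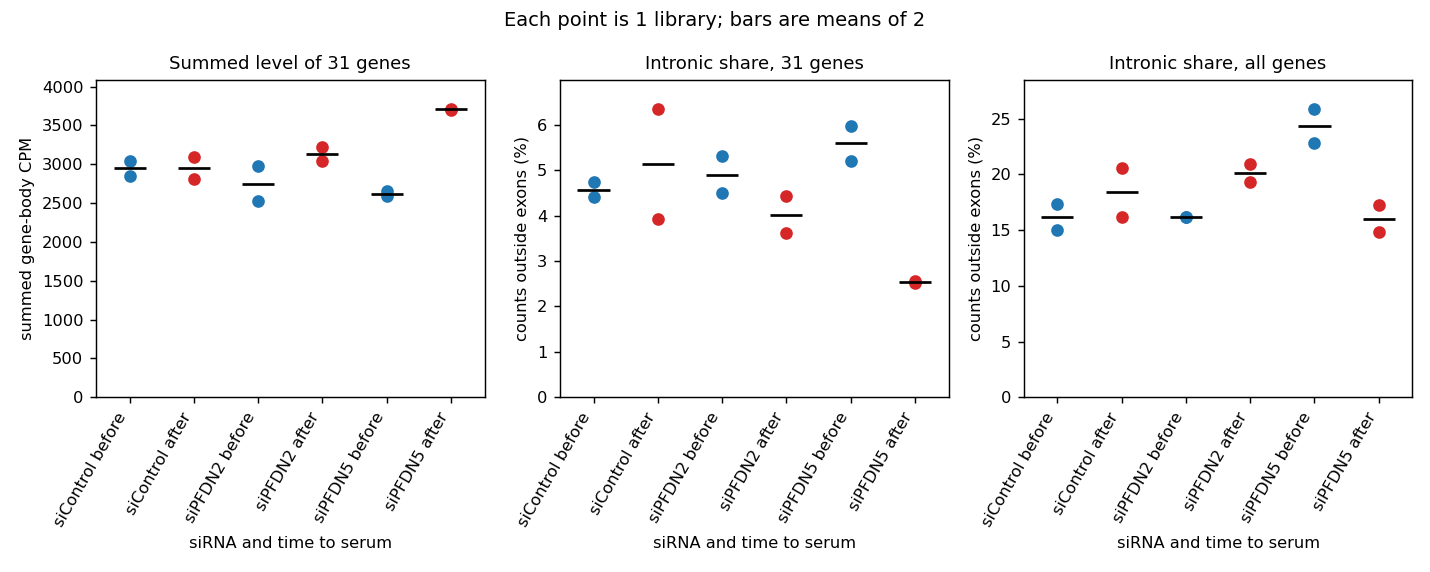
Summed gene-body CPM of the 31 genes (left), their share of counts outside exons (middle) and the same share over all genes (right), by group, with 1 point for each library and a bar for the mean of 2. The 2 libraries labelled siPFDN5 after serum have the highest summed level (3702 and 3717 CPM) and the lowest intronic share of the 31 genes (2.55% and 2.51%), while over all genes their shares are 17.2% and 14.8%, the second the lowest of the 12 libraries and close to the 15.0% of a siControl library before serum.

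Tested on their intronic counts in the average over the siRNA labels, the subunit genes did not move in 1 direction with serum. The serum response within the siPFDN5 label was not tested on intronic counts. Of 29 genes with enough intronic counts (PSMB4 and PSMB6 had too few), PSMC4 rose by 0.38 ± 0.13 and PSMB2 fell by 0.37 ± 0.13 on the log2 scale in the average over the siRNA labels (edgeR adjusted p = 0.0397 and 0.042), and 19 of 29 lay above 0. Over all genes with enough intronic counts 29.3% were called in either direction. The median over the 29 genes was 0.09, against 0.23 over the 31 genes in gene-body counts. With library size as the only scaling, 8 were called, all lower (35.1% of all genes), and their median was -0.27 beside -0.36 over all genes, so the direction of the intronic values depended on the scaling. Both calls were lost when any 1 of 9 libraries was left out. Such a fit leaves 1 library in a group, and the share of all genes called in those 9 fits is not given here. Of the subunit genes, 15 overlap another annotated gene (PSMD14, PSMD6, PSMC2, PSMA2 and PSMA3 overlap 3 each) and fragments in the overlap were counted for each gene, so that intronic counts there may belong to the neighbour.

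The deposited transcript estimates split each gene's level over its isoforms. In 12 of the 31 genes the leading transcript held 90% or more of the gene's estimate on average, among them PSMB1-201 (99.0%), PSMB6-201 (98.8%) and PSMD14-201 (98.3%), and in 7 it held under 60%. In 2 genes the leading transcript is not annotated as coding the protein: PSMA5-204, a processed transcript with 71.7%, and PSMD13-202, annotated for nonsense-mediated decay, with 51.9%. In PSMD1, both libraries of a group shared a shift. Its second transcript, PSMD1-213, held 10.2% and 5.7% in siPFDN5 before serum and 25.3% and 26.5% in the libraries labelled siPFDN5 after serum. In siControl after serum its share was 5.4% in one library and 23.2% in the other, a gap between replicates about as large as that shift. In replicate 2 of siPFDN2 before serum several shares stood apart from the other libraries: PSMA3-201 fell short at 68.4%, against 93.7% to 97.5% elsewhere, and PSMC5-221, annotated for nonsense-mediated decay, held 22.9%, against at most 0.6% elsewhere.

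Among 45 other genes of the proteasome system (alternative subunits, activators, assembly chaperones, associated enzymes, transcriptional control and ubiquitin), 44 were tested, and PSMB11, the thymus-specific beta subunit, had too few counts. In the siPFDN5 label 9 of the 44 rose after serum and 0 fell, beside 5.72% of all genes called higher, with a median of 0.36 over the list. PSMG3, an assembly chaperone of the alpha ring, rose from 18.8 and 19.4 to 33.1 and 33.0 CPM (0.79 ± 0.16), and PSMD9, an assembly chaperone of the base, rose by 0.54 ± 0.14. PSMB10, the beta subunit that replaces PSMB7 in the immunoproteasome, rose by 0.68 ± 0.17, and PSME2, a subunit of the interferon-inducible activator, by 0.49 ± 0.13. The polyubiquitin gene UBB rose by 0.60 ± 0.14.

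The small MAF genes, whose products pair with NFE2L1 and NFE2L2, had the largest changes of the list. In siControl MAFF had 7.20 and 7.58 CPM before serum, then 73.3 and 78.1 after it, a log2 fold change of 3.36 ± 0.19 (edgeR adjusted p = 2.4e-06), and it rose by 3.59 in siPFDN2 and 3.26 in the siPFDN5 label. MAFK rose by 1.23 ± 0.24 in siControl and 1.45 ± 0.24 in the siPFDN5 label. In siPFDN2, NFE2L2, the oxidative-stress factor, rose by 0.70 ± 0.16, from 102 and 70.8 to 141 and 140 CPM. The 70.8 is from replicate 2 before serum, the library that stood apart. In siControl NFE2L2 went from 96.8 and 92.8 to 135 and 136 CPM. In the siPFDN5 label it went from 101 and 102 to 128 and 130 CPM. It was not called within either of these labels. MAFF and MAFK were both called in siControl. Whether these transcripts bear on the subunit genes was not tested.

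In the average over the labels 7 of the 44 rose and 0 fell, beside 7.6% of all genes called higher. MAFF, MAFK and NFE2L2 rose by 3.40, 1.13 and 0.52. RPS27A, which encodes ubiquitin fused to a ribosomal protein, rose by 0.45 ± 0.13. POMP, the maturation factor of the core particle, rose by 0.48 ± 0.15 and RAD23B, a shuttle for ubiquitinated proteins, by 0.41 ± 0.12. In siPFDN2 before serum, replicates 1 and 2 had 374 and 210 CPM of RPS27A, 70.0 and 33.8 of POMP and 312 and 177 of RAD23B. With 1 library left out at a time, these changes ran from 0.33 to 0.61, from 0.34 to 0.70 and from 0.30 to 0.57, in that order. NFE2L1 itself had 157 and 145 CPM before serum in siControl, then 132 and 139 after it. In the siPFDN5 label it had 121 and 130 before serum, then 124 and 129, and it was called in no comparison. These are RNA levels, and a part of NFE2L1 in the result was not tested.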

How the data were processed

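Groups and replicate numbers came from the sample titles. The authors deposited fragment counts for each gene's whole body and for its exons. Per the file headers featureCounts made them on Ensembl release 87 of GRCh38, from pairs with both ends mapped, without strand, and counted a fragment once for every gene it touched. The submitters' processing notes name HISAT2 (given as 0.12.2), featureCounts 1.5.2, kallisto 0.43 and GRCh38.p7. The authors also deposited estimated counts per transcript, in files whose names say TPM. The count tables have 6 columns that match no sample and were not used.

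Positions and GC content came from GENCODE 29. The model was fitted with edgeR (4.0.16; R 4.3.3) to gene-body counts: filterByExpr, TMM scaling, 6 group means over 12 libraries, and the two-sided quasi-likelihood test in 10 comparisons, adjusted by Benjamini-Hochberg over 27915 genes (threshold 0.05). SE came from the fold change and its test statistic. The fit was tested on simulated counts. Alternatives were exon counts, transcript sums rounded to whole counts, DESeq2 1.42.0, other scaling and filters, a GC trend removed, a replicate block and leaving out libraries. Values per library are given for up to 3 called members in each direction, or for the largest and smallest value where none was called, and for called genes of the other lists. Library values of PSMA1, PSMA2, PSMA4, PSMB2, PSMB5 and PSMB7, those of NFE2L1 and the marker genes, and the transcripts named were added after their values were seen. The members and lists were chosen with earlier results of these data known. Some genes of the other lists are counted but not reported by name here.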

Additional observations from a re-analysis of the deposited data

How the results depend on the processing

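Counts of called subunit genes were recomputed under up to 24 alternatives each, 3 of them chosen after seeing the data (exon counts with the GC trend removed, and a fit without both libraries of siPFDN2 before serum or without both labelled siPFDN5 after serum). The percentage after a count is the share of all genes called in the same direction by that fit. For the serum response in the siPFDN5 label (11 genes), every alternative other than leaving out 1 library of that label called at least 6: 6 with exon counts (2.72%), 7 with transcript sums (3.16%), 6 with library size only (2.78%), 18 without the filter (4.65%), 27 with the GC trend removed (16.4%), 25 with exon counts and GC (13.2%), 29 with only the groups compared (27.4%) and 28 without both libraries of siPFDN2 before serum (20.2%). All 11 genes kept a positive sign in each of these. For the averaged serum response (4 genes) the counts were 2 with exon counts (5.85%), 12 with DESeq2 (9.33%), 0 with library size only, 9 without the filter (6.23%), 22 with the GC trend removed (15.4%) and 21 with exon counts and GC (15.4%). For siPFDN5 against siControl after serum (0 genes) they were 6 with DESeq2 (3.28%), 2 without the filter (1.42%), 19 with the GC trend removed (7.9%), 14 with exon counts and GC (7.85%), 7 with only the groups compared (4.7%) and 24 without both libraries of siPFDN2 before serum (13.8%). Before serum the same contrast (0 genes) gave, all lower, 13 with only the groups compared (9.12%), 1 with exon counts and GC (0.755%), and 4 without both libraries of siPFDN2 before serum (3.92%). The difference between the siPFDN5 and siControl responses (0 genes) gave 9 with DESeq2 (1.42%), 4 without the filter (0.53%), 16 with the GC trend removed (4.03%), 20 with only the groups compared (8.74%) and 22 without both libraries of siPFDN2 before serum (12.6%). The serum response in siPFDN2 (0 genes) gave 4 without the filter (10.9% in either direction), and that in siControl (0 genes) gave 1 without both libraries of siPFDN2 before serum (6.13%). The intronic count (2 genes) became 1 with DESeq2 (13.3%), 8 with library size only (35.1%) and 0 without the filter. The causes were not tested.

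Same-numbered replicates did not deviate together in every pair of groups (r from -0.319 to 0.593 over 15 pairs of groups, 5 of them over 0.1). These correlations cannot tell whether same-numbered replicates share a culture or a day. With the replicate as a block 9 genes were called in the siPFDN5 label (4.81%) and 2 in the average (6.92%); with the block and the GC trend removed the counts were 26 (14.7%) and 17 (14%), and 12 for siPFDN5 against siControl after serum (5.71%).

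Leaving out each library in turn gave 0 to 28 genes for the serum response in the siPFDN5 label, 0 to 26 for the average, 0 to 23 in siPFDN2 and 0 to 4 in siControl. The range was 0 to 22 for siPFDN2 and 0 to 4 for siPFDN5 against siControl before serum, 0 to 24 for siPFDN5 after serum, 0 to 21 and 0 to 22 for the differences of the siPFDN2 and siPFDN5 responses from siControl, and 0 to 6 for the intronic count. The log2 fold change of PSMD11 in siPFDN5 against siControl after serum ran from -0.20 to 0.022 and turned direction, at 0.0017 without replicate 1 of siControl after serum and 0.022 without replicate 1 labelled siPFDN5 after serum. Where leaving out a library gave 0 genes, the share of all genes called is not given. The loss of calls is therefore not set against that over all genes. No subunit gene had under 2400 gene-body counts in a library, but PSMB4 and PSMB6 had too few intronic counts to be tested there.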
